A study of Arabidopsis thaliana with 4 samples.

Results

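The starch breakdown genes described here are 10 genes chosen by locus and known role: BAM1, BAM3, AMY3, GWD, PWD, SEX4, ISA3, DPE1, DPE2 and MEX1. They are 10 of the 27655 genes in the expression table, and each had at least 1 FPKM (mapped fragments scaled to exon length and library depth) in at least 1 library. The rule that lists them holds no measured value, but the genes were chosen with earlier results of these data known. The rule divided them into 2 genes known as stress-type (BAM1 and AMY3) and 8 known as night-type (the others). This division was compared with the data.

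Leaf RNA of 3-week-old Arabidopsis thaliana, grown on soil in long days, was sequenced as 4 libraries of 1 each. Wild type (WT, Col-0) was taken before treatment, called 0 h, with 0% PEG. WT, an AtBBD1 overexpression line and an AtBBD1 knock-out line were taken 6 h after watering with 20% polyethylene glycol (PEG), which lowers the water available to roots. AtBBD1 encodes a bifunctional nuclease acting on DNA and RNA, and the study asked how its level affects the drought response. The overexpression library is named p35S:AtBBD1 in the labels. The study names the line OX5-4 and describes its promoter as that of cassava vein mosaic virus, which drives the transgene in many cell types. The knock-out, atbbd1, is a T-DNA insertion line with its AtBBD2 gene left in place. Each genotype was represented by 1 line, and RNA was taken from several plants together, so plant-to-plant variation was not measured. No untreated library was taken at 6 h or in either line. PEG and the 6 h of the day that passed therefore cannot be told apart in WT, and the lines can be compared after PEG only.

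With 1 library per condition no difference has a replicate check, and no p-value is given. Each ratio of FPKM is printed with an exact 95% interval that covers counting error only. "Called" means at least 2-fold apart among the 16374 genes that reached 1 FPKM in some library. The estimated depth was 15334000 to 17693000 fragments per library. AtBBD1 itself was at 95.51 FPKM in WT at 0 h, 540.94 in WT after PEG, 631.27 in OX5-4 and 36.63 in atbbd1. It was thus 14.8-fold lower in atbbd1 than in WT (13.9 to 15.7). In OX5-4 it was 1.17-fold above WT, beside 1.15-fold for AtBBD2, so after PEG the overexpression library stood close to PEG-treated WT for this gene. The study reports AtBBD1 several-fold above WT in this line by quantitative PCR. The level in untreated OX5-4 was not sequenced, so the 1.17-fold holds after PEG only. The mesophyll markers RBCS1A, RCA and LHCB2.1 summed to 26600, 14200, 13400 and 17900 FPKM in untreated WT, PEG-treated WT, OX5-4 and atbbd1, respectively, while the 4 root markers were at 0 in each library.

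Leaf starch is made in chloroplasts by day and broken down at night. GWD (glucan, water dikinase) and then PWD phosphorylate the glucans at the granule surface, which loosens it, and the phosphatase SEX4 takes the phosphate off again so that hydrolysis can go on. Beta-amylases release maltose from chain ends, the debranching enzyme ISA3 removes branches, and the alpha-amylase AMY3 cuts inside chains. MEX1 carries maltose out of the chloroplast, DPE1 works on short glucans inside it and DPE2 converts maltose in the cytosol. BAM3 is known as the main beta-amylase of mesophyll at night. BAM1 and AMY3 are known for daytime starch breakdown in guard cells and in osmotically stressed leaves.

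The 300 bases before the start of each gene were read from the TAIR10.1 genome, 5′ to 3′ on the strand of the gene. They were searched on both strands for 5 short motifs known from stress and clock control. These were the ABA-responsive element (ABRE) core ACGTG, the G-box CACGTG that contains it, the drought-responsive element (DRE) core CCGAC, the evening element AAAATATCT and the CCA1-binding site AAAAATCT. Shown first are the whole windows of BAM1 and AMY3, since both are called stress-type and their levels went opposite ways, with motif letters in capitals.
BAM1, chr3:8640881-8641180, plus strand: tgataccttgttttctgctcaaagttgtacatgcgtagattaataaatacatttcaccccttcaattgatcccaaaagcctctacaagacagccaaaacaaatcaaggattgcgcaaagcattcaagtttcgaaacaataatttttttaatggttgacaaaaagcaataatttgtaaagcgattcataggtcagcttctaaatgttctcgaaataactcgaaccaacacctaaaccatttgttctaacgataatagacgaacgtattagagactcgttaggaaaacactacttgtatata
AMY3, chr1:26293174-26293473, minus strand: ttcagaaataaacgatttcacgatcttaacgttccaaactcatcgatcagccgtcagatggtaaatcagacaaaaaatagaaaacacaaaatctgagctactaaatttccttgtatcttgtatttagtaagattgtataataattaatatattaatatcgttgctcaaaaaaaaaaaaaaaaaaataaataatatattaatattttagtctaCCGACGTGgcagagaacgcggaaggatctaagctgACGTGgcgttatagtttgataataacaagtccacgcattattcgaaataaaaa
The AMY3 window held the ABRE core at 85 to 81 and at 53 to 49 bases before the start, and a DRE core at 88 to 84 that shares letters with the first of them. The BAM1 window held none of the 5 motifs.

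The last 60 bases before the start are shown for PWD, ISA3 and DPE1, which beside AMY3 are the genes with an evening element or an ABRE core in this stretch.
PWD, chr5:9261419-9261478, plus strand: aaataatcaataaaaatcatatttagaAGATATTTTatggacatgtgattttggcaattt
ISA3, chr4:5783849-5783908, plus strand: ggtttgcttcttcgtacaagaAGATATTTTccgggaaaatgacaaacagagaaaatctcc
DPE1, chr5:25928880-25928939, minus strand: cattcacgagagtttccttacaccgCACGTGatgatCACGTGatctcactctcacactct
The capitals in PWD and ISA3 are the evening element read from the other strand, at 33 to 25 and 39 to 31 bases before the start. Those in DPE1 are 2 G-boxes, each of which also reads as an ABRE core on both strands. Over the 300 bases, the evening element was found in 2 of the 10 genes and in 2.79% of 27443 promoters. The ABRE core was in 3 (AMY3, SEX4 and DPE1) against 25.6%, and the G-box in 1 against 7.09%. The DRE core was in 2 (AMY3 and ISA3) against 13.9%, and the CCA1-binding site in 2 (PWD and DPE2) against 7.94%. In all, 6 genes held at least 1 motif, and BAM1, BAM3, GWD and MEX1 held none. The windows of SEX4, DPE2 and MEX1 overlap neighbouring genes. A match describes letters in this window and was not tested as a binding site.

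In WT after PEG, 8 of the 10 genes were called higher than at 0 h and 2, BAM1 and BAM3, were called lower. Among all genes, 16.1% were called higher and 15.9% lower in this comparison. The median log2 ratio of the 10 genes was 3.24, beside 0.04 over all genes. The 2 kinds were not divided by direction: BAM3 was the night-type gene that was lower, and AMY3 was the stress-type gene that was higher. The clock genes moved in the same interval. The morning gene LHY was at 125.41 FPKM at 0 h and 0.45 in WT after PEG, and CCA1 at 156.73 and 3.55. The evening genes TOC1 (1.77 and 52.70) and ELF4 (0.10, from 1 fragment, and 77.63) went the other way. Of 7 clock genes 4 were called higher and 3 lower. After PEG, 0 of the 7 were called in OX5-4 against WT, with log2 ratios from -0.17 (LHY) and -0.13 (GI) to 0.43 (ELF4) and 0.83 (CCA1). In atbbd1 against WT, PRR9 was called lower at 3.58-fold (2.80 to 4.62), CCA1 stood at a log2 ratio of -0.86, and LUX (0.43) and ELF4 (0.56) were highest. Between OX5-4 and atbbd1, CCA1 (3.25-fold) and PRR9 (3.54-fold) were called higher, with LUX (-0.51) and TOC1 (-0.22) lowest. The shares of all genes called higher and lower in these 3 comparisons were 2.45% and 1.31%, 1.07% and 5.29%, and 7.33% and 1.28%. The part of the clock in the values of the starch genes was not tested.

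**Figure D1:**
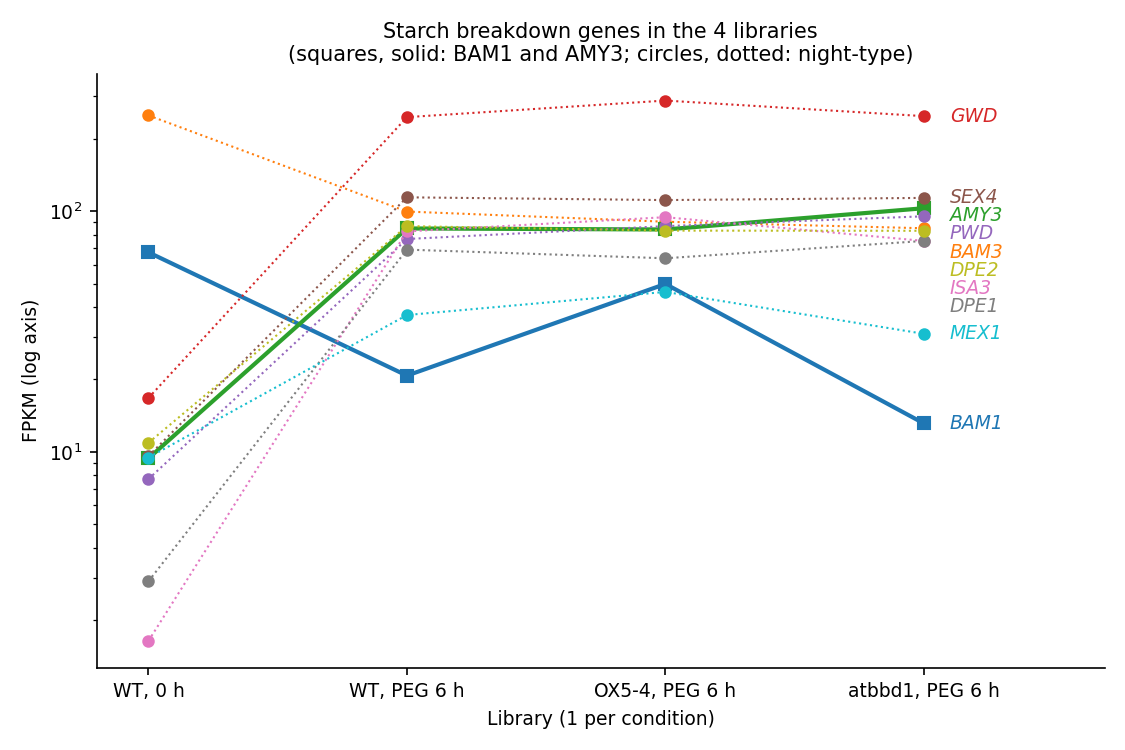
FPKM (log axis) of the 10 starch breakdown genes in the 4 libraries, 1 point per library, with lines joining the points of a gene. In WT, 8 genes lay higher after PEG than at 0 h, while BAM3 fell from 249.98 to 99.66 FPKM and BAM1 from 67.45 to 20.74, and BAM1 alone was spread widely over the 3 lines after PEG.

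The enzymes that phosphorylate and dephosphorylate starch were low at 0 h. GWD (AT1G10760, annotated as SEX1, chromosome 1, 3580830 to 3590928, minus strand) was at 16.75 FPKM in WT at 0 h, 245.91 in WT after PEG, 288.18 in OX5-4 and 248.32 in atbbd1. The WT values were 14.7-fold apart (13.9 to 15.5), and GWD went from place 3 of the 10 genes by FPKM to place 1 in each library after PEG. PWD (AT5G26570, chromosome 5, 9261479 to 9267732, plus strand), which adds phosphate where GWD has already done so, was at 7.71, 76.63, 86.69 and 95.22 FPKM. It was 9.94-fold higher in WT after PEG (9.03 to 11). The level of GWD over that of PWD, both per length, was 2.17 at 0 h and 2.61 to 3.32 after PEG. SEX4 (AT3G52180, chromosome 3, 19349600 to 19353728, minus strand), the phosphatase, was at 9.61, 114.19, 111.22 and 113.56 FPKM. It was 11.9-fold higher in WT after PEG (10.5 to 13.4), and its 3 values after PEG lay within 1.03-fold of each other.

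The debranching enzyme ISA3 (AT4G09020, chromosome 4, 5783909 to 5789100, plus strand) had the largest ratio of the 10. It was at 1.64 FPKM in WT at 0 h, from 69 fragments, and at 82.41 in WT after PEG, 94.43 in OX5-4 and 75.25 in atbbd1. The WT ratio was 50.2 (39.6 to 64.8). The alpha-amylase AMY3 (AT1G69830, chromosome 1, 26288228 to 26293173, minus strand) was at 9.40, 84.77, 83.95 and 102.88 FPKM. Its ratio in WT, 9.02 (8.19 to 9.97), lay within the 3.91 to 50.2 of the 7 night-type genes that were higher.

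The glucan and maltose steps that follow were higher too. DPE1 (AT5G64860, chromosome 5, 25925173 to 25928879, minus strand), the plastid disproportionating enzyme, was at 2.90 FPKM at 0 h, from 90 fragments, and at 69.23, 63.73 and 75.24 in WT, OX5-4 and atbbd1 after PEG. This was 23.9-fold in WT (19.3 to 29.8). DPE2 (AT2G40840, chromosome 2, 17044932 to 17051062, plus strand), its cytosolic counterpart, was at 10.91, 86.68, 83.03 and 82.90 FPKM, 7.95-fold higher in WT after PEG (7.29 to 8.69). The level of DPE1 over DPE2 was 0.266 at 0 h and 0.768 to 0.908 after PEG. The maltose exporter MEX1 (AT5G17520, annotated as RCP1, chromosome 5, 5772568 to 5775417, minus strand) was at 9.47, 37.03, 46.20 and 30.94 FPKM. Its WT ratio of 3.91 (3.41 to 4.50) was the smallest of the 8. A neighbouring locus, AT5G17523, is 99.8% identical to MEX1 over 406 bases. It was listed at 0 in the 4 libraries, so any reads of its own could stand under MEX1.

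Both beta-amylases were lower. BAM3 (AT4G17090, annotated as CT-BMY, chromosome 4, 9604962 to 9607402, minus strand) was at 249.98 FPKM in WT at 0 h, 99.66 in WT after PEG, 90.41 in OX5-4 and 84.93 in atbbd1. It was the most abundant of the 10 genes at 0 h, with 64.8% of their summed FPKM, and held 9.06 to 10.9% in the 3 libraries after PEG. The WT difference was 2.51-fold (2.41 to 2.61). Exons on the opposite strand overlap those of BAM3 over 531 bases. The antisense gene AT4G17085 was at 2.68 FPKM at 0 h and 11.49 to 13.40 after PEG. The study names a stranded library kit, but no source used here says whether counting used strand. Reads of AT4G17085 and BAM3 could therefore stand under each other. BAM1 (AT3G23920, chromosome 3, 8641181 to 8644449, plus strand) was at 67.45 FPKM in WT at 0 h, 20.74 in WT after PEG, 49.85 in OX5-4 and 13.13 in atbbd1. The WT difference was 3.25-fold (3.00 to 3.52), so that BAM1 went from place 2 of the 10 genes to place 10. BAM1 and BAM3 transcripts share 70.7% identity over 543 bases, below the 95% at which genes were treated as sharing reads. Summed over the 10 genes, FPKM was 386 at 0 h and 917 in WT after PEG.

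After PEG, BAM1 was the member that differed at least 2-fold between lines. Its 49.85 FPKM in OX5-4 stood 2.40-fold above the 20.74 of WT (2.22 to 2.61), from 2222 and 822 fragments. The 13.13 FPKM of atbbd1, from 562 fragments, was 1.58-fold below WT (1.42 to 1.76), which was not called. OX5-4 was 3.8-fold above atbbd1 (3.46 to 4.17). Both comparisons with WT rest on the same WT library, and OX5-4 against atbbd1 does not. The ratio of BAM1 between OX5-4 and WT was above that of 98.3% of genes, and the ratio between OX5-4 and atbbd1 above that of 97.4%. PEG-treated OX5-4 was below the untreated WT level of BAM1, at 0.739 of it (0.698 to 0.783), while PEG-treated atbbd1 was 5.14-fold below it (4.69 to 5.64). Both of these ratios hold line, PEG and the 6 h of the day together.

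Against WT, 1 of 10 genes was called higher in OX5-4 and 0 lower, where 2.45% and 1.31% of all genes were. In atbbd1, 0 of 10 were called in either direction, where 1.07% of all genes were called higher and 5.29% lower. Between OX5-4 and atbbd1, 1 of 10 was called higher in OX5-4 and 0 lower, where 7.33% and 1.28% of all genes were. The median log2 ratios of the 10 genes were 0.08, -0.04 and 0.05 in these 3 comparisons, beside 0.02, -0.11 and 0.11 over all genes. Scaling each library to the median of ratios over genes moved OX5-4 against atbbd1 by -0.12 and atbbd1 against WT by 0.10 on the log2 scale, so the signs of medians this close to 0 depend on the scaling.

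**Figure D2:**
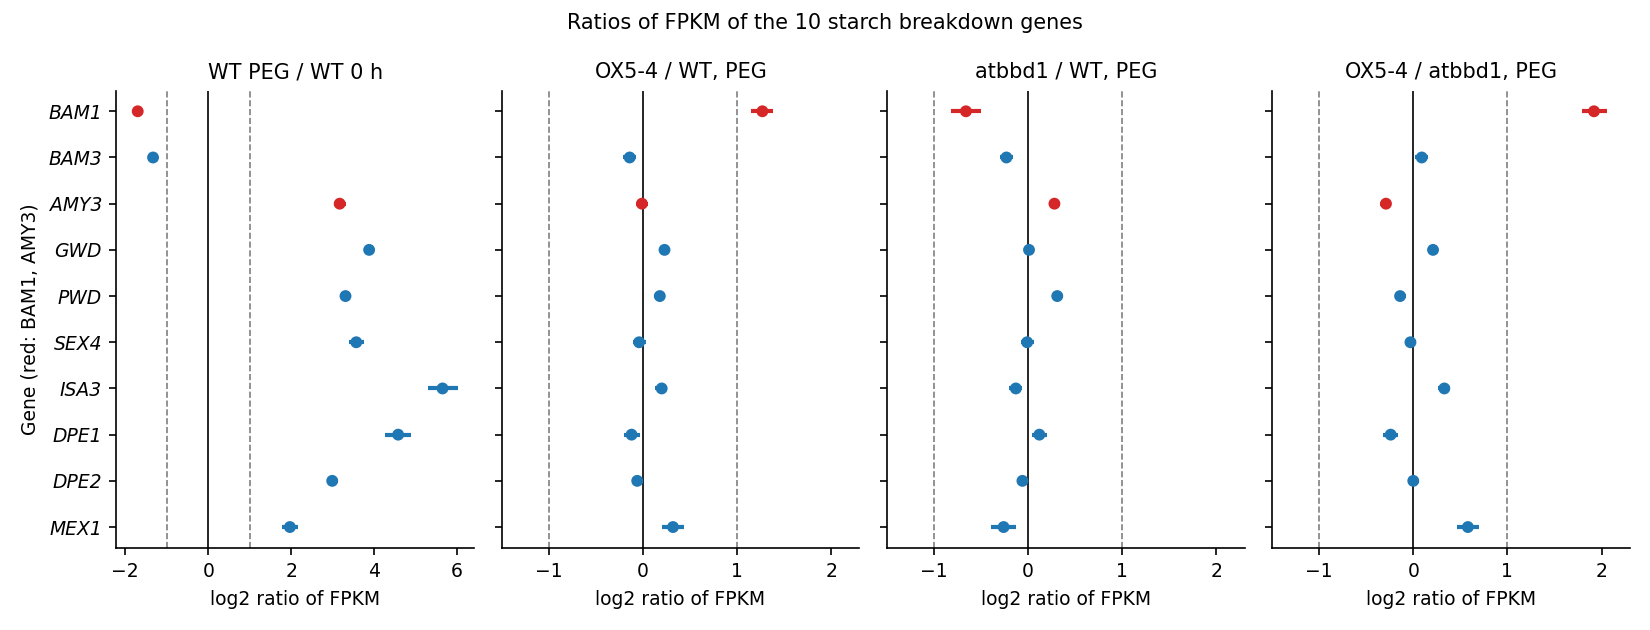
Log2 ratio of FPKM of each gene in the 4 comparisons, with points for the ratios, horizontal lines for exact 95% counting intervals and dashed lines at 2-fold. In WT after PEG against 0 h, 8 genes lie to the right of 2-fold and BAM1 and BAM3 to the left; between lines BAM1 alone lies past 2-fold, at 1.27 in OX5-4 against WT and 1.92 in OX5-4 against atbbd1.

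AMY3, the other stress-type gene, did not share the order of BAM1. It was at 84.77 FPKM in WT and 83.95 in OX5-4, a ratio of 0.99 (0.949 to 1.03), and 1.21-fold higher in atbbd1 than in WT (1.17 to 1.26). OX5-4 was 1.23-fold below atbbd1 for AMY3 (1.18 to 1.27). The level of AMY3 over that of BAM1, both per length, was 0.139 in WT at 0 h, 4.09 in WT after PEG, 1.68 in OX5-4 and 7.84 in atbbd1. The median over the stress-type pair minus that over the night-type genes, 0.56 for OX5-4 against WT on the log2 scale, was 1.20 with BAM1 alone and -0.08 with AMY3 alone, so this difference is that of BAM1.

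Among the other members, ISA3 and MEX1 had the order of BAM1, with OX5-4 above WT and WT above atbbd1, at smaller ratios. Over all genes 32.8% had this order, so 3 of 10 lies near the background. Against WT, MEX1 was 1.25-fold higher in OX5-4 (1.15 to 1.35), 1.20-fold lower in atbbd1 (1.09 to 1.31). OX5-4 stood 1.49-fold above atbbd1 for MEX1 (1.37 to 1.62). ISA3 was 1.15-fold higher in OX5-4 (1.10 to 1.20), 1.10-fold lower in atbbd1 (1.05 to 1.15) and 1.25-fold higher in OX5-4 than in atbbd1 (1.20 to 1.31). GWD stood 1.17-fold above WT in OX5-4 (1.15 to 1.19), with atbbd1 at 1.01 of WT (0.990 to 1.03), so WT and atbbd1 were not told apart by counting error. PWD was higher than WT in both lines, at 1.13 (1.09 to 1.18) in OX5-4 and 1.24 (1.20 to 1.29) in atbbd1.

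The remaining 4 differed little between lines. DPE1 had the order of AMY3, at 0.921 of WT in OX5-4 (0.868 to 0.977) and 1.09 in atbbd1 (1.03 to 1.15). BAM3 was at 0.907 of WT in OX5-4 (0.864 to 0.952) and 0.852 in atbbd1 (0.811 to 0.896). Its ratio between OX5-4 and atbbd1, 1.06 (1.01 to 1.12), was 0.98 with median-of-ratios scaling. DPE2 was at 0.958 of WT in OX5-4 (0.920 to 0.997) and 0.956 in atbbd1 (0.918 to 0.996), the latter 1.03 with that scaling. SEX4 was at 0.974 of WT in OX5-4 (0.931 to 1.02) and 0.994 in atbbd1 (0.95 to 1.04), and the 3 lines were not told apart by counting error. How far any of these ratios exceeds the spread between replicate libraries was not measured.

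Cell types can shift with line or treatment, and in bulk leaf RNA fewer cells of a type and less RNA per cell cannot be told apart. Guard cell markers, of which 4 of 6 reached 1 FPKM, summed to 18.3 FPKM in WT at 0 h, 9.64 in WT after PEG, 9.29 in OX5-4 and 11.6 in atbbd1. The sum was thus lower after PEG than at 0 h in WT, though GORK was higher (0.58 and 0.87 FPKM). The mesophyll sum (26600 and 14200 FPKM) and the phloem sum were also lower. Among the lines after PEG, the guard cell sum was highest in atbbd1, where BAM1 was lowest. Between OX5-4 and atbbd1 the log2 ratios of the 4 guard cell markers were -0.65 (FAMA), -0.37 (MYB60), -0.01 (KAT1) and -0.01 (GORK). FAMA alone had a counting interval that excluded equal levels. HT1 and SLAC1, which act in stomatal movement, were below 1 FPKM in each library. Phloem markers summed to 56.6, 22.5, 30.5 and 44.0 FPKM in the same order. After PEG, 3 of 3 were higher than in WT both in OX5-4 and in atbbd1. The 3 trichome markers summed to 0.16 to 0.38 FPKM, with GL1 at 0. The 3 flower markers summed to 0.95 to 2.11 FPKM, nearly all from AG. These sums describe marker levels only, and the part of cell composition in the BAM1 values was not tested.

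The bZIP factors of the ABF group bind ABREs and act downstream of ABA, and ABF2 is known as a regulator of BAM1 and AMY3 under osmotic stress. ABF2 was at 15.18 FPKM in WT at 0 h, 13.78 in WT after PEG, 31.44 in OX5-4 and 7.06 in atbbd1. OX5-4 stood 2.28-fold above WT (2.07 to 2.52), atbbd1 stood 1.95-fold below it (1.70 to 2.25) and OX5-4 was 4.45-fold above atbbd1. ABF3, at 52.41, 32.33, 57.14 and 8.60 FPKM, stood 1.77-fold above WT in OX5-4 and 3.76-fold below it in atbbd1. ABF4 was at 7.92, 13.28, 15.03 and 9.52 FPKM. ABF1, at 0.80 FPKM at 0 h, was at 44.94, 44.89 and 37.64 after PEG. Of the 4 factors, 1 was called higher in OX5-4 than in WT, 1 lower in atbbd1 and 2 higher in OX5-4 than in atbbd1. Among all genes these shares were 2.45%, 5.29% and 7.33%. ABF2, ABF3 and ABF4 stood in the order of BAM1 over the 3 lines after PEG, the order found in 32.8% of all genes, and AMY3 did not. The part of these factors in the values of BAM1 and AMY3 was not tested.

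The genes closest to BAM1 over the 4 libraries were sought among the 8648 genes that reached 10 FPKM in some library. The measure was the root mean square difference of log2(FPKM + 1) after subtracting the mean of each gene. By this measure the closest was EGY3, a chloroplast protein related to site-2 proteases, with a difference of 0.095. It was at 10.58, 2.57, 8.53 and 1.71 FPKM in untreated WT, PEG-treated WT, OX5-4 and atbbd1, respectively. It was followed by CIPK5, a CBL-interacting kinase (39.16, 13.65, 26.40 and 6.85 FPKM, difference 0.124), then AT1G62510 (0.130), DHNAT1 (0.15) and AT3G05165 (0.154). BAM3 stood at place 715 in this order and AMY3 at place 8471. For AMY3 the closest was CHL, a chloroplast lipocalin, at 10.16, 87.37, 88.80 and 104.17 FPKM with a difference of 0.032. RABA1c (0.070), AT1G67660 (0.074), ERD3 (0.075) and AT4G12900 (0.076) came next. Of the 10 genes, PWD was the closest to AMY3, at place 16 with a difference of 0.108, and SEX4 and DPE2 were at places 48 and 53. For BAM3 the closest were AT5G46490 (0.042), AT2G31410 (0.043), AT4G39780 (0.046), PP2-A11 (0.046) and AT1G62422 (0.048), with BAM1 at place 4198. The added 1 shrinks the ratios of genes at a few FPKM in some libraries, such as EGY3 and AT4G12900 (1.03 FPKM at 0 h). The places of such genes therefore depend on it, and no order without it was computed. These are descriptions over 4 libraries only.

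The other breakdown genes, 18 in number and with all 18 at 1 FPKM or more in some library, were more divided in WT. After PEG, 8 were called higher and 3 lower, where 16.1% and 15.9% of all genes were, with a median log2 ratio of 0.60. Of the 8, AMY1 rests on 2 fragments against 1 (ratio 2.0, 0.101 to 115). The glucan phosphorylases lay with the group that was higher. PHS2, the cytosolic form, was at 8.44 FPKM at 0 h and 202.89 in WT after PEG (24.0-fold, 21.8 to 26.6), and PHS1, the plastid form, at 9.37 and 141.23 (15.1-fold, 13.7 to 16.6). BAM9, a beta-amylase-like protein without catalytic activity, was at 111.53 and 1.15 FPKM, 97.0-fold lower (69.9 to 139). AMY2, an alpha-amylase, was at 16.75 and 2.1 FPKM, 7.98-fold lower (6.15 to 10.5). AMY2 was thus a hydrolase that was lower beside BAM1 and BAM3, while the beta-amylase BAM5 was called higher (4.09-fold, 3.04 to 5.6).

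Between lines, 1 of the 18 was called higher in OX5-4 than in WT and 0 lower, where 2.45% and 1.31% of all genes were. The median log2 ratio was 0.10, and the called gene is given next. This was AMY1, a secreted alpha-amylase, at 0.08 FPKM in WT and 1.51 in OX5-4, from 2 and 43 fragments (ratio 18.9, 4.98 to 163). AMY2 was next, at a ratio of 1.53 (1.12 to 2.11). ESV1, which helps organise starch granules, and PHS2 had the lowest ratios, with log2 values of -0.35 and -0.15. In atbbd1 against WT, 1 was called higher and 2 lower, where 1.07% and 5.29% of all genes were, with a median of 0.05. AMY2 was 2.02-fold higher (1.5 to 2.76), and GWD2, a dikinase outside the plastid, had a log2 ratio of 0.48. BAM5, an extraplastidial beta-amylase of phloem, was at 5.56 FPKM in WT and 0.62 in atbbd1, 8.97-fold lower (6.01 to 13.7). The second, AMY1, rests on 1 fragment against 2. Between OX5-4 and atbbd1, AMY1 (ratio 37.8, 7.03 to 1670, from 43 fragments against 1) and BAM5 (9.87, 6.65 to 15.0) were called higher and 0 lower. Over all genes, 7.33% were called higher and 1.28% lower there. AMY2 and GWD2 were lowest, with log2 ratios of -0.40 and -0.33, and the median was 0.10.

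**Figure D3:**
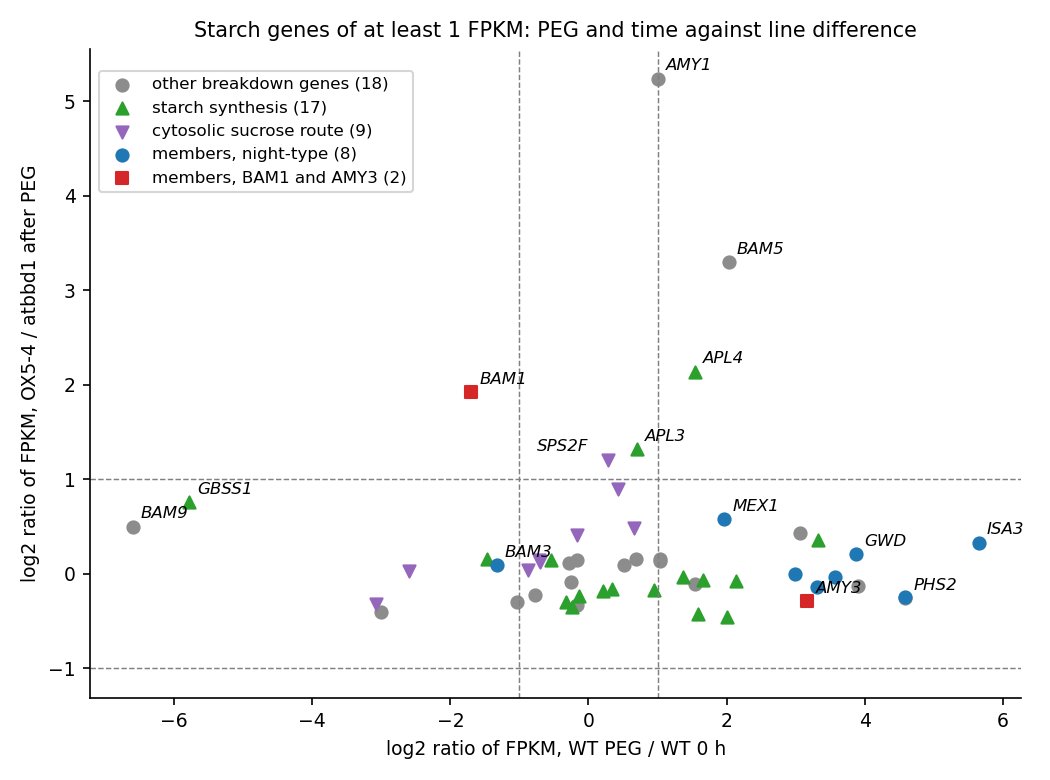
Log2 ratio of FPKM in WT after PEG against 0 h (horizontal) and in OX5-4 against atbbd1 after PEG (vertical), 1 point per gene of at least 1 FPKM, with symbols for the starch lists and dashed lines at 2-fold. BAM1 stands at -1.70 and 1.92, lower after PEG in WT and higher in OX5-4 than in atbbd1, while AMY3 stands at 3.17 and -0.29 among the night-type genes.

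Genes of starch synthesis, 17 in number, were likewise divided in WT. After PEG, 7 were called higher and 2 lower, beside 16.1% and 15.9% of all genes, and the median log2 ratio was 0.70. The branching enzyme gene SBE2.1 was at 11.99 FPKM at 0 h and 120.01 in WT after PEG, a log2 ratio of 3.32 (3.19 to 3.46), and SS4, which starts granules, was 4.38-fold higher. GBSS1, which makes amylose, was at 282.07 and 5.10 FPKM, 55.3-fold lower (47.8 to 64.3), and the starch synthase SS2 was 2.76-fold lower. The genes furthest apart in OX5-4 against WT and against atbbd1 were APL3 and APL4, large subunits of ADP-glucose pyrophosphorylase, the enzyme that feeds starch synthesis. APL4 was at 2.41 FPKM in WT after PEG, 6.66 in OX5-4 and 1.51 in atbbd1, a 2.76-fold difference between OX5-4 and WT (2.21 to 3.47), the 1 gene of the list called there. APL3 was at 18.35, 25.24 and 10.13 FPKM, 1.38-fold above WT in OX5-4 and 1.81-fold below it in atbbd1. Both were called between OX5-4 and atbbd1, at 4.41-fold and 2.49-fold. Both had the order of BAM1, found in 32.8% of all genes, which partly follows from naming them for these ratios. GBSS1 was the 1 gene called in atbbd1 against WT, 2.12-fold lower (1.64 to 2.74), while PGM1 (log2 ratio 0.51) and SS4 (0.31) were highest there. The lowest in OX5-4 against WT were GBSS1 (-0.33) and APL2 (-0.29), and against atbbd1 APL2 (-0.46) and PGM1 (-0.43). The medians of the list were 0.08, 0.18 and -0.08 in OX5-4 against WT, atbbd1 against WT and OX5-4 against atbbd1. The shares of all genes called higher and lower in these comparisons were 2.45% and 1.31%, 1.07% and 5.29%, and 7.33% and 1.28%, respectively.

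Of 10 genes that take maltose and glucose to sucrose in the cytosol, 9 reached 1 FPKM in some library. In WT after PEG, 0 were called higher and 2 lower, with a median log2 ratio of -0.70. SPS4F, a sucrose phosphate synthase, was at 110.64 FPKM at 0 h and 13.20 after PEG (8.38-fold lower, 7.85 to 8.96), and UGP2, a UDP-glucose pyrophosphorylase, was 6.05-fold lower. SPS1F (0.66) and the hexokinase gene HXK2 (0.43) had the highest log2 ratios. With 16.1% of all genes called higher and 15.9% lower, these counts lie near the background. Between each line and WT, 0 of the 9 were called. Of all genes, 2.45% were called higher and 1.31% lower in OX5-4, and 1.07% and 5.29% in atbbd1. In OX5-4 the log2 ratios ran from -0.33 (SPS4F) and 0.02 (HXK1) to 0.44 (HXK2) and 0.95 (SPS2F). In atbbd1 they ran from -0.46 (HXK2) and -0.25 (SPS2F) to 0.14 (UGP2) and 0.16 (PGM2). Between OX5-4 and atbbd1, SPS2F was called higher, 2.31-fold (1.72 to 3.14), where 7.33% of all genes were. HXK2 followed (log2 ratio 0.90), and SPS4F (-0.32) and UGP2 (0.03) were lowest.

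**Figure D4:**
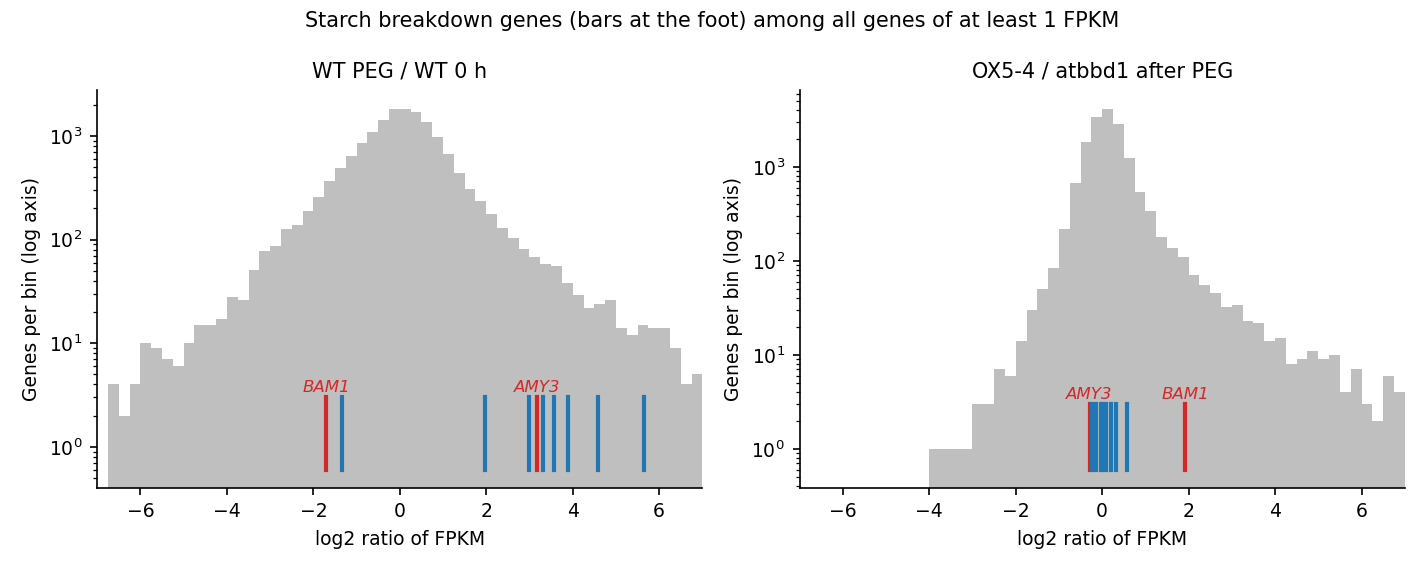
Number of genes per bin (log axis) by log2 ratio of FPKM, over genes of at least 1 FPKM in at least 1 library, with short vertical bars at the foot for the 10 starch breakdown genes, BAM1 and AMY3 in red, and the few most extreme genes beyond the axis. In WT after PEG the 8 genes other than BAM1 and BAM3 lie at 1.97 to 5.65, while between OX5-4 and atbbd1 the 9 genes other than BAM1 lie at -0.29 to 0.58 and BAM1 lies at 1.92.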

How the data were processed

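The deposited table holds FPKM per gene for 4 leaf libraries, 1 per condition. The authors computed FPKM with Cufflinks against TAIR10. The study's methods name HISAT2 as the mapper, and the submitters' processing notes name TopHat2. Fragments were recovered as FPKM times exon length (TAIR10.1) times an estimated library total. At that total, 99.2 to 99.3% of values up to 40 fragments came out whole within 0.15, against 23.4 to 24.7% at other totals, so the depth is an estimate. This check used 1704 to 1846 short genes per library with 1 annotated transcript, and no member was among them. GWD, PWD, SEX4 and MEX1 have several transcripts, and their fragments rest on the combined exon length. Ratios of FPKM used no pseudocount, with exact 95% binomial intervals. The 4 comparisons were WT PEG against WT 0 h, both lines against WT PEG, and OX5-4 against atbbd1. A ratio against 0 was called only where the other library had at least 1 FPKM. The likeness measure used a pseudocount of 1.

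Named genes were the 10 members, AtBBD1, AtBBD2, the 2 highest and 2 lowest of each list per comparison, and the 5 genes closest to BAM1, AMY3 and BAM3. Values of marker genes and of clock genes are given as sums or for part of the lists. Members and lists were chosen with earlier results of these data known. Promoters (300 bases) were read from TAIR10.1, and protein sequences were not used here. Interval code was tested on simulated data. Python 3.11.15, pandas 2.3.3 and SciPy 1.17.1 were used. Alternatives were no filter, 5 FPKM, pseudocounts of 0.1 and 1, other scalings, thresholds of 1.5-fold and 4-fold, and each stress-type gene alone.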

Additional observations from a re-analysis of the deposited data

How the results depend on the processing

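No paired analysis was possible because each condition had 1 library, and no library could be left out for the same reason. Of the alternative ratios of single members, 139 stayed within the counting interval and 19 left it. Where that interval excluded 1, 2 more changed direction, both with median-of-ratios scaling: DPE2 in atbbd1 against WT (1.03) and BAM3 in OX5-4 against atbbd1 (0.98). Ratios whose interval held 1 also crossed it: with median-of-ratios scaling SEX4 in atbbd1 against WT (1.07) and DPE2 in OX5-4 against atbbd1 (0.922), and with common sum scaling GWD in atbbd1 against WT (0.989) and SEX4 in OX5-4 against atbbd1 (1.01). The median log2 ratio of the members was 3.1 with a pseudocount of 1 in WT, and with median-of-ratios scaling 0.07 in atbbd1 against WT and -0.07 in OX5-4 against atbbd1. The stress-type minus night-type median, -2.71, 0.56, -0.15 and 0.77 in the 4 comparisons, was -5.14, 1.20, -0.62 and 1.88 with BAM1 alone and -0.27, -0.08, 0.32 and -0.34 with AMY3 alone. The members called in WT after PEG were 7 at 4-fold, without BAM1, BAM3 and MEX1, so that 0 were lower. They were 0 at 4-fold in OX5-4 against WT and against atbbd1, and 1 (BAM1) at 1.5-fold in atbbd1 against WT. In WT after PEG, 5239 genes were called, 8063 with no filter and 1820 at 4-fold. For OX5-4 against WT 615 were called, and with no filter, 5 FPKM, a pseudocount of 1 and 4-fold there were 2874, 281, 260 and 127. For atbbd1 against WT 1041 were called, and 3404, 539, 421 and 277 in that order. For OX5-4 against atbbd1 1411 were called, and 3937, 793, 790 and 466. The call of BAM1 in OX5-4 was kept under each scaling and pseudocount. Among the members, depth limits ISA3 and DPE1 at 0 h most (69 and 90 fragments), and AMY1 and ELF4 rest on 1 fragment in some libraries.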
